A study of Mus musculus with 2 samples.

Results

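Cells in division were examined across every lineage of whole mouse lung. A cell was counted as cycling when at most 10% of its unique molecular identifiers (UMIs, which count captured RNA molecules) came from mitochondrial genes and at least 4 of 8 genes of late cell division had 1 or more UMIs. The 8 genes were Mki67, Top2a, Birc5, Cdk1, Ccnb2, Cenpf, Ube2c and Nusap1. This rule found 269 cells among 14971 cells within the mitochondrial limit (1.80%), from 15453 cells deposited. The members were chosen by measured values, so the levels of these 8 genes describe the choice and are not a result.

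Single-cell RNA sequencing had been run on 2 libraries, 1 labelled control and 1 labelled fibrosis, each from 1 mouse. All animals were male C57Bl/6J, aged 3 months, given 100 µg of TiO2 (titanium dioxide, a particle) or crocidolite asbestos (a fibre that scars the lung) through the trachea, with lungs taken on day 14. The treatment text names both particles for both mice and does not tie either to a mouse, so the libraries keep their labels, control and fibrosis. Whole lung was digested to single cells without a sort. With 1 mouse per library there is no replicate check and no test of control against fibrosis. All 95% intervals given here cover counting error only.

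A dividing cell copies its DNA in S phase and separates the copies in mitosis. In S phase it licenses and fires replication origins, makes nucleotides and packs new DNA on histones. In mitosis, cyclins bound to the kinase CDK1 drive entry, condensins compact the chromosomes, kinetochores attach them to the spindle and a contractile ring splits the cell. In adult lung, alveolar macrophages can renew themselves locally, conventional dendritic cells divide after they arrive from the marrow, and AT2 cells (the surfactant-making epithelial cells) act as progenitors of the alveolus. Monocytes and neutrophils normally leave the marrow after their last division.

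The 8 choosing genes act in one part of that sequence. Mki67 coats mitotic chromosomes, Top2a untangles DNA, Birc5 (survivin) belongs to the chromosomal passenger complex, Cdk1 is the mitotic kinase and Ccnb2 its cyclin partner, Cenpf is a kinetochore protein, Ube2c marks cyclins for destruction and Nusap1 bundles spindle microtubules. Late cell cycle promoters are known to carry a cell cycle genes homology region (CHR) and CCAAT boxes, which bind the DREAM and MuvB complexes and NF-Y. The upstream 250 bases are shown for 4 of the 5 choosing genes that hold both motifs. They come from RefSeq for GRCm38.p6, run 5′ to 3′ on the gene's strand up to the start site, and have in capitals the CHR letters TTTGAA or their reverse complement TTCAAA and the CCAAT box letters CCAAT or ATTGG.
Cdk1, chr10:69352913-69353162, minus strand: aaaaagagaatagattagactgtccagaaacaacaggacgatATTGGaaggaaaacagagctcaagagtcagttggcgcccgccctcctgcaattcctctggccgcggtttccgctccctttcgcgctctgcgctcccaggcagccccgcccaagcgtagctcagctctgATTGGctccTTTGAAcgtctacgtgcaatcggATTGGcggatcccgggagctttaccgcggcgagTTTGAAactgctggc
Ccnb2, chr9:70421555-70421804, minus strand: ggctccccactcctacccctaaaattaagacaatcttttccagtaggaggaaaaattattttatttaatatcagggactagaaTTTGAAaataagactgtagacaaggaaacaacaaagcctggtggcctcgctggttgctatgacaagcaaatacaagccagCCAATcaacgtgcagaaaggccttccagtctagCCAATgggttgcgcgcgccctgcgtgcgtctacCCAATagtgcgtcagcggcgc
Top2a, chr11:99024190-99024439, minus strand: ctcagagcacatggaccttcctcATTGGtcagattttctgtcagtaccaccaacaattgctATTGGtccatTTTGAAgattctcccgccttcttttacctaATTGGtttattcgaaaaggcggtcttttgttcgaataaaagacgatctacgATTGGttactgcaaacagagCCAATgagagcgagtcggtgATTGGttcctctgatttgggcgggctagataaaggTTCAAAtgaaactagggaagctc
Ube2c, chr2:164769679-164769928, plus strand: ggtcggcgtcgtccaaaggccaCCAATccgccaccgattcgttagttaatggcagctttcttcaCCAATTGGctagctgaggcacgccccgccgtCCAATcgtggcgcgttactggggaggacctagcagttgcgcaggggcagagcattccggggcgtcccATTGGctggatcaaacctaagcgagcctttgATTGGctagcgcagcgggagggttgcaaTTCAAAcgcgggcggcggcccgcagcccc
The Cdk1 window holds 2 CHR matches and 3 CCAAT box matches, and the Top2a window holds 2 and 6. All 8 choosing genes matched the promoter table. CHR letters were present in 5 of the 8 windows (62.5%), against 16.3% of all 27025 promoters of the same length. CCAAT box letters were present in 6 of 8, against 34.5% of all promoters. Both were present in 5 of 8, against 5.73%. Other lists of mitosis genes used below were mixed for CHR letters. CHR letters were present in 4 of 6 condensin and compaction promoters and 6 of 15 spindle promoters. They were present in 2 of 12 mitotic cyclin and kinase, 2 of 11 kinetochore and 1 of 5 cytokinesis promoters, near the share of all promoters. CCAAT box letters were present in 10 of 12 mitotic cyclin and kinase, 8 of 11 kinetochore and 10 of 15 spindle promoters. For condensin and compaction promoters the count was 4 of 6, and for cytokinesis promoters 2 of 5. These are matches of letters on either strand, which show no binding, and 2 matches can overlap, as in CCAATTGG in the Ube2c window.

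Few cells lay near the threshold. In the control library 504 cells held 1 gene, 69 held 2, 12 held 3, 12 held 4, 14 held 5, 14 held 6, 26 held 7 and 34 held all 8. In the fibrosis library the corresponding counts were 464, 66, 32, 19, 26, 32, 40 and 52. The counts were lowest at 3 and 4 genes in control and at 4 genes in fibrosis, and higher on either side. Cells just outside, with exactly 3 genes, had a median of 4.5 (control) and 5 (fibrosis) UMIs over the 8 genes, and cells just inside, with exactly 4, had 8.5 and 8. The 4 genes that mark the population were found in most members. Mki67 had a UMI in 87.0% of control and 89.3% of fibrosis members, Top2a in 89.0% and 87.0%, Birc5 in 97.0% and 91.1% and Cdk1 in 66.0% and 68.0%. In cells outside the rule the same genes had a UMI in 0.442% to 2.23% of cells.

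**Figure D1:**
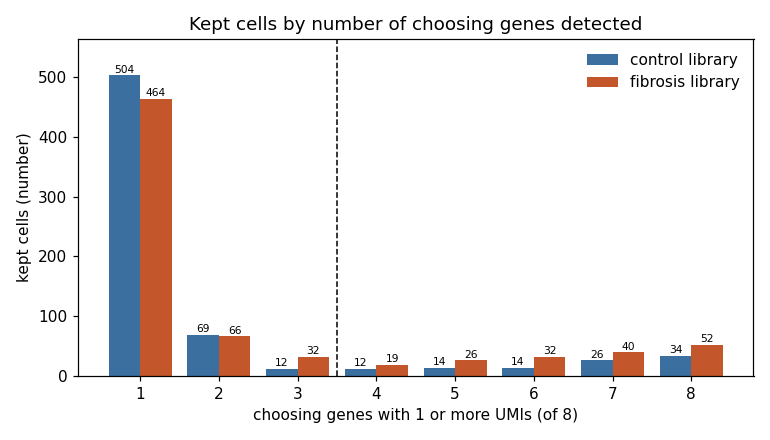
Number of cells (vertical axis) that held 1 to 8 of the choosing genes (horizontal axis) in the control and fibrosis libraries, with the threshold of 4 genes marked. Counts fall from 504 and 464 cells with 1 gene to 12 and 19 cells with 4 genes, and reach 34 and 52 cells with all 8.

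Cycling cells were a larger share of the fibrosis library. They numbered 100 of 8026 control cells (1.25%, exact Clopper-Pearson 95% interval 1.01 to 1.51) and 169 of 6945 fibrosis cells (2.43%, 2.08 to 2.82). The difference was 1.19 percentage points (Newcombe interval 0.76 to 1.64). The libraries also differed in depth, with a median of 3768.5 UMIs in control and 4284.5 in fibrosis cells outside the rule. When each cell was thinned at random to 1460 UMIs, the lowest total of any kept cell, 0.511% of control and 0.864% of fibrosis cells met the rule, a difference of 0.353 points (0.0889 to 0.634). At 3000 UMIs, which left out shallower cells, the shares were 78 of 4874 cells (1.60%) and 108 of 5067 (2.13%), and the interval of their difference reached 0 (0.531 points, -0.0033 to 1.07). The mix of lineages differed as well. Control rates of each lineage applied to the cell numbers of the fibrosis library gave 130.1 cycling cells (1.87%). Fibrosis rates applied to the control cell numbers gave 145.9 (1.82%). Small lineages entered at their counted rates, such as plasma cells at 1 of 3 in control and 0 of 14 in fibrosis. No interval was computed for either value.

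Members held more UMIs than the other cells. Their median was 7711 UMIs and 2555.5 genes in control and 8339 UMIs and 2535 genes in fibrosis, against 1384.5 and 1533.5 genes in the other cells. Markers of a second lineage family, which a droplet with 2 cells would show, were present in 15 control members (15.0%) and 28 fibrosis members (16.6%), against 12.4% and 12.6% of other cells. Doublet calls covered 13 control and 4 fibrosis members, under rules that differed between the libraries. The libraries shared 89 barcodes, carried by 4 control and 1 fibrosis member, and no cycling barcode occurred in both. The part of these features in the shares was not tested beyond the values given with each result.

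Each cell was assigned to the best of 25 marker lists, and members fell into 16 lineages, 11 of them with 5 or more members. A lineage is called like its list (alveolar macrophage-like) since no annotation was used. The levels of marker genes in the assigned cells follow from the assignment and are given as a description. Ear2, an eosinophil-type ribonuclease that marks alveolar macrophages, had UMIs in 41 of 41 control and 61 of 61 fibrosis alveolar macrophage-like members, with medians of 11 and 12 UMIs, and C1qa, the complement gene of interstitial macrophages, in 0 and 3. Xcr1, the chemokine receptor of type 1 dendritic cells, had UMIs in 8 of 9 and 29 of 33 type 1 dendritic cell-like members. Cd3e, a chain of the T cell receptor complex, had UMIs in 13 of 16 and 18 of 19 T cell-like members. The nearest cells outside the rule, in a space built without cycle genes, gave the same lineage for 244 of 265 members (92.1%), including 101 of 102 alveolar macrophage-like and 42 of 42 type 1 dendritic cell-like members, but only 3 of 6 B cell-like, 5 of 8 neutrophil-like and 5 of 8 club cell-like members. Marker genes were not left out of that space, and the nearest cells were labelled by the same lists. The agreement is therefore no independent check of the assignment.

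Alveolar macrophage-like cells were the most numerous cycling lineage in both libraries. They made up 41 of 100 control members (41.0%, 31.3 to 51.3) and 61 of 169 fibrosis members (36.1%, 28.9 to 43.8). Within the lineage, 41 of 711 control cells (5.77%, 4.17 to 7.74) and 61 of 980 fibrosis cells (6.22%, 4.79 to 7.92) were cycling. The difference was 0.458 points with an interval from -1.92 to 2.71, and it was -1.07 points when cells were thinned to 3000 UMIs (-3.49 to 1.14). Markers of a second family were present in 2 and 4 of these members. The lineage itself grew from 8.86% to 14.1% of kept cells. These intervals cover the counting of cells in 1 library per group, so the spread between mice is not known.

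Type 1 dendritic cell-like cells had the highest cycling share of any lineage with 5 or more members. In control 9 of 114 (7.89%, 3.67 to 14.5) were cycling, and in fibrosis 33 of 250 (13.2%, 9.26 to 18.0). The interval of that difference included 0 (5.31 points, -2.09 to 11.3), and at 3000 UMIs the shares were 7.55% and 10.6%. Of all cycling cells they were 9 of 100 in control and 19.5% in fibrosis, a difference of 10.5 points (1.58 to 18.4), while their share of kept cells went from 1.42% to 3.60%. Leaving out cells with markers of a second family widened this interval to include 0 (9.98 points, -0.19 to 18.9), and so did taking each member's lineage from its nearest cells (9.12 points, -0.20 to 17.3). Such markers were present in 0 of 9 control and 4 of 33 fibrosis members. Type 2 dendritic cell-like cells, marked by Cd209a and Mgl2, followed with 1 of 88 control cells (1.14%) and 11 of 196 fibrosis cells (5.61%, 2.83 to 9.82), a difference of 4.48 points (-1.11 to 8.74). Both dendritic lineages together were 10.0% of control and 26.0% of fibrosis members, a difference of 16.04 points (6.46 to 24.4). Their shares of kept cells rose as well, from 1.42% to 3.60% for type 1 and from 1.10% to 2.82% for type 2 cells. The part of this rise in the combined difference was not tested. None of the 83 fibrosis cells assigned to migratory dendritic cells, which carry antigen to lymph nodes, met the rule, with an exact interval up to 4.35%.

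Lymphocytes were the next group. T cell-like cells were cycling in 16 of 644 control cells (2.48%, 1.43 to 4.003) and 19 of 628 fibrosis cells (3.03%, 1.83 to 4.68), with a difference of 0.541 points (-1.32 to 2.45), and 1 and 5 of these members held markers of a second family. Natural killer (NK) cell-like cells were cycling in 8 of 333 (2.40%, 1.04 to 4.68) and 5 of 165 (3.03%, 0.991 to 6.93). The intervals of both lineages overlap widely between the libraries. B cell-like cells were cycling in 3 of 944 (0.318%) and 3 of 415 (0.723%). The B cell-like members rested on few cells, and the smooth muscle genes Myh11 and Acta2 led their gene list beside Ms4a1, and 1 fibrosis member had smooth muscle markers as its second family.

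Among structural cells, AT2 cell-like cells were numerous and few of them cycled. They were cycling in 6 of 1117 control cells (0.537%, 0.197 to 1.17) and 10 of 1900 fibrosis cells (0.526%, 0.253 to 0.966). All 6 and all 10 held Lamp3, the lamellar body gene of AT2 cells, but 5 and 4 of them held markers of a second family, including alveolar macrophage markers in 3 control cells and 1 fibrosis cell. Doublet calls, under rules that differed between the libraries, covered 4 of the 6 control and 2 of the 10 fibrosis members. After thinning to the lowest total, 0 of 1117 control and 5 of 1900 fibrosis cells met the rule. Endothelial cell-like cells were cycling in 2 of 304 (0.658%) and 6 of 226 (2.65%, 0.98 to 5.69), a difference of 2.00 points (-0.233 to 5.05). The 8 cells whose best list was that of club cells (1 of 122 in control and 7 of 214 in fibrosis) were led by Ly6g6c, Krt20, Serpinb2, Anxa10 and Upk3bl, with no club marker among their 10 leading genes, so that name is not used for them below. The 7 fibrosis cells had a median of 24953 UMIs, against 14591 in the other cells of that list, and none met the rule after thinning to the lowest total.

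Myeloid cells other than alveolar macrophages and dendritic cells cycled rarely. Interstitial macrophage-like cells, marked by C1qa, C1qb and C1qc, were cycling in 3 of 189 control cells (1.59%) and 5 of 459 fibrosis cells (1.09%). Classical monocyte-like cells, the most numerous lineage in control, were cycling in 2 of 1688 (0.118%) and 1 of 439 (0.228%). Neutrophil-like cells were cycling in 4 of 1046 (0.382%) and 4 of 219 (1.83%), a difference of 1.44 points (0.18 to 4.23). That difference turned to -0.30 points when cells with a second family's markers were left out. Such markers were present in 6 of the 8 members and in 35.5% and 63.3% of the other neutrophil-like cells. Neutrophil-like members were led by Camp, Ngp, Fcnb and Cebpe, granule and lineage genes of immature neutrophils.

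Members were not found in 9 of the 25 lineages. Nonclassical monocyte-like cells had 0 of 298 in control and 0 of 240 in fibrosis, with exact intervals up to 1.23% and 1.53%. Fibroblast-like cells had 0 of 46 and 0 of 57, with exact intervals up to 7.71% and 6.27%. Plasmacytoid dendritic cell-like cells had 0 of 61 and 0 of 46, and mesothelial-like cells 0 of 33 and 0 of 34. Lymphatic endothelial, smooth muscle, basophil or mast and erythroid cells numbered at most 25 in a library and had none either. Single members were assigned to plasma (control), ciliated (control), group 2 innate lymphoid (fibrosis) and AT1 cells (fibrosis), and 2 members of each library to no list.

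**Figure D2:**
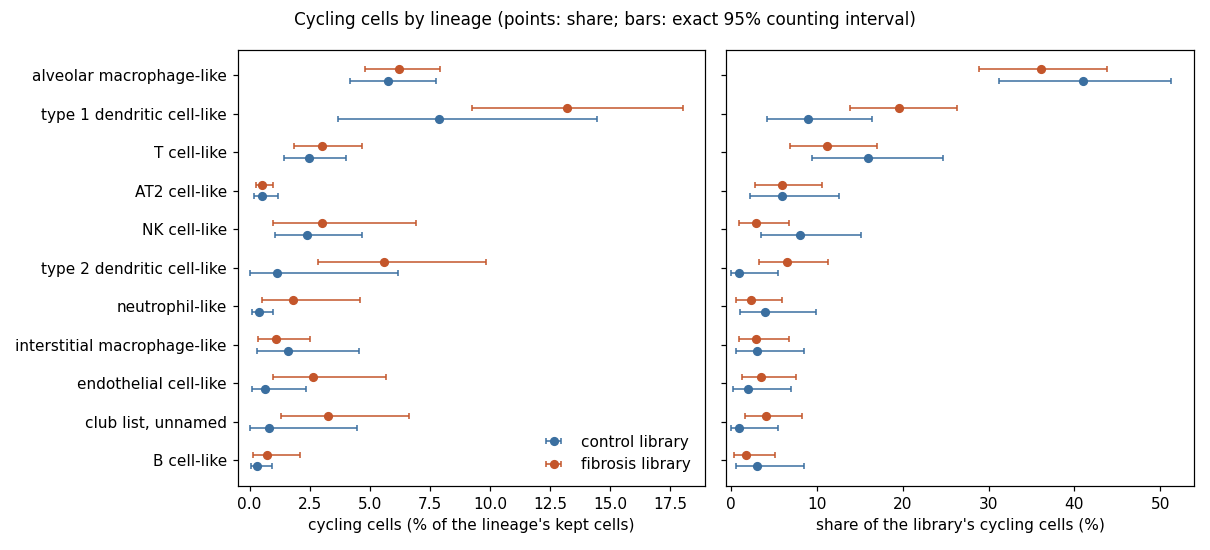
Cycling cells as a percent of each lineage's cells (left) and each lineage as a percent of the library's cycling cells (right) for the control and fibrosis libraries, for lineages with 5 or more members, with points for shares and bars for exact 95% Clopper-Pearson intervals. Type 1 dendritic cell-like cells lie highest, at 7.89% and 13.2%, and alveolar macrophage-like cells follow at 5.77% and 6.22%, while AT2 cell-like cells lie at 0.537% and 0.526% on the left.

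The other genes of division were examined next, in lists that leave out the choosing genes. Levels are UMIs summed over the cells of a group, scaled to counts per 1000000 UMIs of that group (CPM), and a gene counts as higher when its level in cycling cells is at least 2-fold that in the other cells of the same lineage and library. In alveolar macrophage-like cells 103 of the 115 listed genes with enough UMIs were higher in control and 105 of 120 in fibrosis, of 130 listed. Among all genes tested, 12.8% were higher in control and 9.61% in fibrosis, and 6.96% and 5.26% were lower. The medians of the listed genes were 3.90 and 3.61 on the log2 scale, against 0.11 and 0.08 for all genes. Because the cells had been selected on genes that are transcribed together with these, the counts describe the selected cells and nothing is read from them about chance.

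DNA replication genes were higher nearly throughout. Of the origin licensing and replication fork genes, 18 of 18 were higher in control (median log2 ratio 2.85) and 20 of 21 in fibrosis (2.21). Pcna, the sliding clamp of the replication fork, was at 423 CPM (354 to 503) in control members against 64.4 in other alveolar macrophage-like cells, and at 340 CPM (291 to 396) against 67.0 in fibrosis. Rrm2, the subunit that limits ribonucleotide reductase, was at 423 CPM against 4.14 and at 336 against 14.1. Tk1, which recycles thymidine, was at 225 CPM against 4.73 and at 141 against 4.25. All 9 nucleotide supply genes were higher in both libraries. The replication-dependent histone Hist1h2ap was at 713 CPM against 9.46 in control and at 2929 CPM against 49.8 in fibrosis.

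Mitosis genes gave the largest ratios. Spindle genes were higher in 17 of 17 cases in each library (medians 5.94 and 6.06) and kinetochore genes in 12 of 12 and 13 of 13 (5.85 and 4.90). Mitotic cyclins and kinases were higher in 13 of 14 and 14 of 15 (4.96 and 5.60), cytokinesis genes in 5 of 5 and 5 of 5 (5.91 and 5.05), and condensin and compaction genes in 8 of 8 and 8 of 8 (4.26 and 3.76). Prc1, which bundles the central spindle, was at 277 CPM against 2.07 in control and at 270 CPM against 2.32 in fibrosis. Cenpe, a kinetochore motor, was at 260 CPM against 2.07 and at 181 against 2.70. The chromatin protein Hmgb2 was at 1833 CPM against 117 and at 1543 against 119, and had UMIs in all 41 and all 61 members.

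Genes of the entry into the cycle were divided. Of 9 G1 cyclin and kinase genes, 4 were higher in control (median 0.43) and 3 in fibrosis (0.54). Ccne1 and Ccne2, the E cyclins that start S phase, and their kinase Cdk2 passed in both, and Cdk4 lay at the 2-fold line, with log2 ratios of 1.19 (0.63 to 1.68) and 1.00 (0.54 to 1.41). Ccnd2, a D cyclin, did not pass, at 241 CPM in members against 473 in control and at 280 CPM against 400 in fibrosis. Ccnd1 had 2 and 5 UMIs in members. Myc, a growth regulator, was at 22.8 CPM against 23.4 and at 26.2 against 26.1. Ribosome biogenesis and nuclear transport genes passed in 1 of 7 cases in each library, and that gene was Ran, the nuclear transport GTPase, at 860 CPM against 273 and at 735 against 286. Cell cycle transcription factors passed in 3 of 4 and 5 of 5 cases (medians 2.27 and 2.21), and E2f8, a repressor that ends the S phase programme, was at 65.1 CPM (20 UMIs) and 42.3 CPM (21 UMIs) in members.

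Inhibitors of the cycle were partly higher in dividing macrophages. Of 12 inhibitor genes with enough UMIs, 7 were higher and 1 lower in control, and 5 were higher in fibrosis. Among all genes tested, 12.8% were higher and 6.96% lower in control, and 9.61% were higher in fibrosis. Cdkn1a (p21), an inhibitor of cyclin-dependent kinases, was at 352 CPM (288 to 425) against 123 in control. In fibrosis it was at 348 CPM (299 to 404) against 185, below the 2-fold line. Cdkn2c (p18), which blocks CDK4 and CDK6, was at 84.6 CPM against 1.18 in control and at 90.6 against 4.63 in fibrosis. Cdkn2d was also higher, with log2 ratios of 3.22 and 2.90, as were Cdkn2a, Cdkn3 and Ccng2 in both libraries. Btg2, an antiproliferative gene, was lower in control (log2 -1.10, -1.86 to -0.49), while the interval in fibrosis included 0 (-0.16, -0.74 to 0.34).

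**Figure D3:**
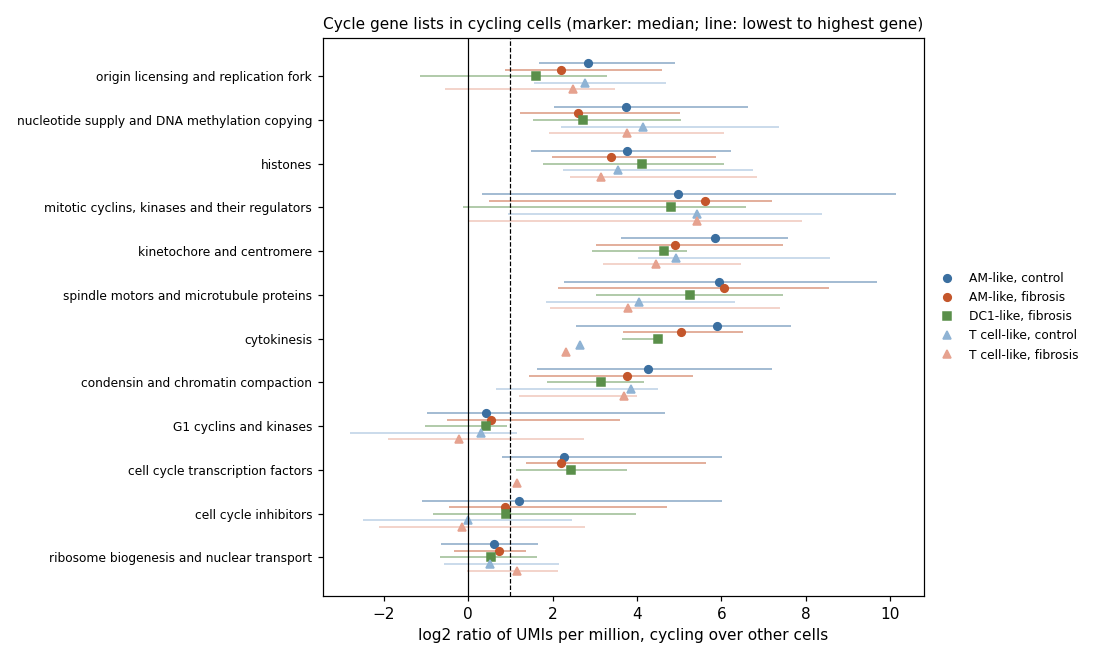
Median log2 ratio of cycling against other cells of the same lineage (horizontal axis) for each list of cell cycle genes (vertical axis) in alveolar macrophage-like (AM-like) and T cell-like cells of both libraries and fibrosis type 1 dendritic cell-like (DC1-like) cells, with lines from the lowest to the highest gene, the solid line at equal levels and the dashed line at 2-fold. In control alveolar macrophage-like cells the spindle, cytokinesis and kinetochore lists lie farthest right, at 5.94, 5.91 and 5.85, and the G1 list lies near 0, at 0.43.

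Most genes of these lists were also higher in type 1 dendritic cell-like and T cell-like members. In fibrosis type 1 dendritic cell-like cells, 73 of 91 listed genes were higher (median 3.08, all genes 0.15, with 10.1% of all genes higher). Spindle genes were higher in 12 of 12 cases (median 5.25, or 5.02 with 1 gene at 0 UMIs set to its bound). In T cell-like cells, 54 of 65 were higher in control (median 3.24, all genes 0.41) and 55 of 70 in fibrosis (2.76, all genes 0.37), against 24.3% and 22.1% of all genes. The G1 cyclin and kinase genes did not follow, with 0 of 7 higher and 1 lower in fibrosis type 1 dendritic cell-like members, 1 of 5 higher and 2 lower in control T cell-like members and 2 of 7 higher and 2 lower in fibrosis ones. Of 8 inhibitor genes in T cell-like members, 3 were higher and 3 lower in control (median -0.01), and 1 was higher and 2 were lower in fibrosis (-0.15). The background shares were higher in T cell-like cells, which had 16 and 19 members. Rrm2 was at 360 CPM against 3.25 (2 UMIs) in control and 237 against 6.84 in fibrosis type 1 dendritic cell-like cells, and at 405 against 2.19 and 273 against 3.88 in T cell-like cells. Hmgb2 was at 3024 and 2972 CPM in type 1 dendritic cell-like members, at 5570 and 4411 in T cell-like members and at 4180 and 4395 in NK cell-like members. The same gene was at 2717 CPM in the 11 fibrosis type 2 dendritic cell-like members against 126 in other cells of that lineage.

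Genes of S phase and of mitosis were then summed in each cell. A list of 30 S phase genes (licensing, fork and nucleotide supply) and a list of 50 mitosis genes were used, per 10000 UMIs of the cell. Members had medians of 25.04 (S) and 62.4 (mitosis) in control and 19.2 and 57.2 in fibrosis, against 1.80 and 1.72 in other control cells and 2.19 and 1.60 in other fibrosis cells. More S phase than mitosis UMIs were found in 24 of 100 control members (24.0%) and 35 of 169 fibrosis members (20.7%), and in 34.6% and 41.2% of the other cells. The lists differ in length and the rule itself uses late genes, so this share does not give the stage of a member. By lineage, more S phase UMIs were found in 9 of 41 and 12 of 61 alveolar macrophage-like members, 2 of 9 and 6 of 33 type 1 dendritic cell-like members and 6 of 16 and 7 of 19 T cell-like members. The rule asks for genes of late division, so cells early in S phase can lie outside it. Alveolar macrophage-like members had a median S level of 41.1 in control and 22.3 in fibrosis, with quartiles of 13.8 to 55.4 and 9.26 to 44.0 that overlap. Endothelial cell-like members had mitosis medians of 112 in 2 control cells and 138 in 6 fibrosis cells, the latter the highest of the lineages with 5 or more fibrosis members. The 7 fibrosis cells on the club list had 6.21 and 7.74, the lowest of those lineages.

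**Figure D4:**
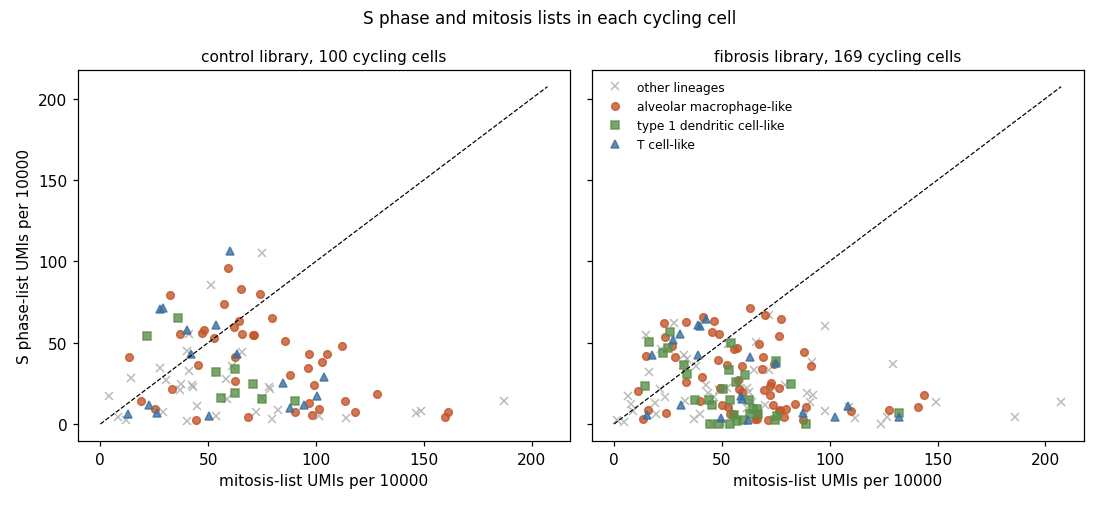
S phase list (vertical axis) against mitosis list (horizontal axis), both as UMIs per 10000 UMIs of the cell, for each cycling cell of the control (left) and fibrosis (right) libraries, coloured by lineage, with the dashed line at equal levels. Most points lie below the line, with medians of 25.04 and 62.4 in control and 19.2 and 57.2 in fibrosis.

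Levels of lineage genes in dividing alveolar macrophage-like cells are a description, since 7 of the 10 resident macrophage genes listed are also among the 8 markers that assigned the cells. Of these 10 genes of resident alveolar macrophages, 9 in each library lay within 2-fold of the other cells (medians -0.39 and -0.26), as did 80.2% and 85.1% of all genes tested. They included the scavenger receptor Marco (303 CPM against 295 and 240 against 229) and the lectin Siglecf (107 against 141 and 96.7 against 113). The 1 lower gene was Cidec, a lipid droplet protein, in control (107 CPM against 233) and Fabp1, a fatty acid binding protein, in fibrosis (155 against 449). None of 9 and 11 myeloid receptor and transcription factor genes passed 2-fold in either direction. Csf2rb, a chain of the GM-CSF receptor that alveolar macrophages need, was at 195 CPM against 264 and at 220 against 283. Csf1r, the receptor of M-CSF, was at 39.1 CPM (20.2 to 68.2) against 75.4 in control and at 42.3 CPM (26.2 to 64.7) against 82.8 in fibrosis, a log2 ratio of -0.89 (-1.92 to -0.12) and -0.94 (-1.68 to -0.34). Pparg, the transcription factor of alveolar macrophage identity, was at 104 CPM against 94.3 and at 94.7 against 77.2.

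Genes associated with monocyte-derived alveolar macrophages were compared in the same way. Of 9 such genes in fibrosis, 0 were higher, 2 were lower and 7 lay between (median -0.64), and in control 2 of 7 were lower, Mmp12 and the fatty acid binding protein Fabp5 (479 CPM against 976). The lower ones in fibrosis were Spp1 and Apoe. Of all genes tested, 5.26% were lower and 9.61% higher in fibrosis, and 6.96% were lower and 12.8% higher in control. Spp1, the secreted protein osteopontin, was at 981 CPM in members against 2099 in other cells (log2 -1.10, -1.23 to -0.97), and 1 member held 166 of its 487 UMIs. Apoe, the lipid carrier, was at 42.3 CPM against 146 (-1.76, -2.49 to -1.17). B cell-like cells of that library held 516 CPM, with a UMI in 45.5% of cells against 32.8% of members. They are therefore not taken as a level of free RNA for this gene. The part of free RNA in the ratio was not tested. Mmp12, the macrophage elastase, was at 536 CPM (473 to 604) against 1011 in fibrosis (log2 -0.91, -1.10 to -0.74), inside the 2-fold line. It had UMIs in 23 of 61 members (37.7%) and in 35.9% of the other alveolar macrophage-like cells of fibrosis. In fibrosis B cell-like cells, which should lack the gene, 6.27% had a UMI, at a median of 2587 UMIs per cell against 7587 in alveolar macrophage-like members. In control no member had a UMI of Mmp12 in a total of 307167, and the other cells of the lineage had 31.3 CPM. That level came from 10 of 670 cells (1.49%), so the lower level in the 41 control members rests on few cells. As a measure of free RNA, the surfactant gene Sftpc of AT2 cells was at 1143 CPM in members against 1166 in control and at 1388 against 1495 in fibrosis, log2 -0.03 and -0.11.

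**Figure D5:**
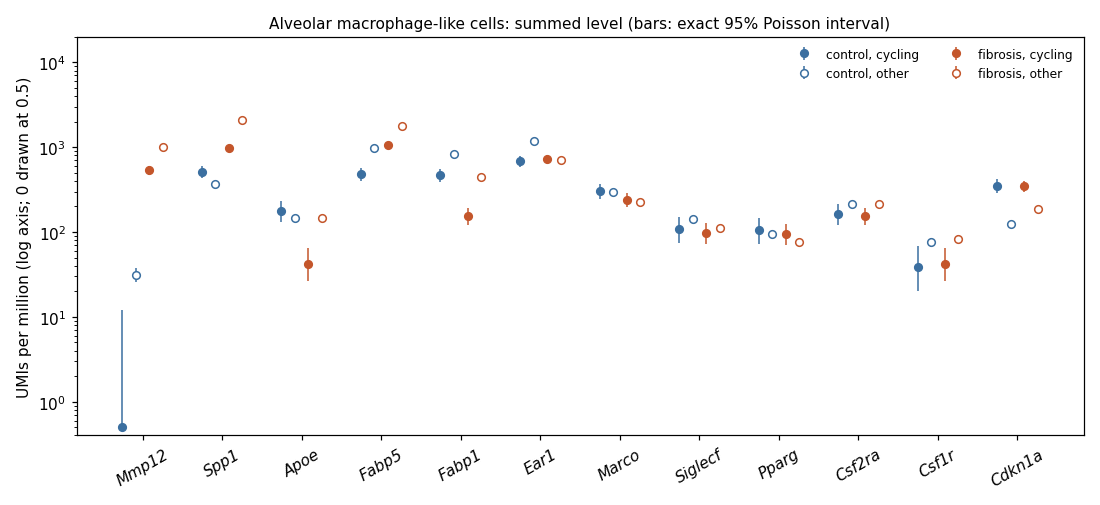
Levels (CPM, log axis, with 0 drawn at 0.5) of named genes in cycling and other alveolar macrophage-like cells of the control and fibrosis libraries, with exact Poisson 95% intervals. Marco lies between 229 and 303 CPM in the 4 groups, while Mmp12 is at 536 CPM in cycling and 1011 CPM in other cells of fibrosis.

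Dividing type 1 dendritic cell-like cells had Irf8, the factor that sets their fate and 1 of the markers that assigned them, at 1575 CPM against 1596 in control and at 1569 against 1578 in fibrosis. Flt3, the receptor of the cytokine that expands dendritic cells, was at 84.6 CPM against 106 and at 133 against 156, and Kit at 52.9 against 40.6 and at 58.5 against 54.7. None of 3 progenitor genes with enough UMIs passed 2-fold in fibrosis. Of the 9 monocyte-derived macrophage genes, 7 were lower and 1 higher in fibrosis members (median -1.69), where 5.54% of all genes tested were lower and 10.1% higher. Low ratios were not particular to that list. The 3 resident alveolar macrophage genes with enough UMIs had a median of -1.61 in the same comparison. Apoe was at 32.5 CPM against 109 and Mmp12 at 4 UMIs (12.99 CPM) against 120 CPM. In fibrosis B cell-like cells, as a level of free RNA, Mmp12 was at 61.6 CPM. Apoe was at 516 CPM there, with a UMI in 45.5% of those cells, and is not taken as such a level. The part of free RNA in these differences was not tested. Cdkn2c was at 74.0 CPM in control members, and at 114 CPM against 10.6 in fibrosis, and Cdkn1a at 180 (17 UMIs) and 48.7 CPM against 48.8 and 26.6.

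In dividing T cell-like cells Il7r, Lef1 and Btg1 were lower, and Gzmb and Il2rb higher, than in the other T cell-like cells of both libraries. Of 15 and 16 T cell subset genes with enough UMIs, 7 were higher and 3 lower in control, and 6 were higher and 4 lower in fibrosis. Of all genes tested, 24.3% and 22.1% were higher and 11.2% and 9.86% lower in these members. Il7r, the interleukin 7 receptor of resting T cells, was at 127 CPM against 466 and at 112 against 507. Lef1, a factor of naive T cells, was at 82.5 CPM against 264 and at 55.8 against 213. Gzmb, a cytotoxic granule protease, was at 195 CPM against 66.3 and at 112 against 23.3. Il2rb, a chain of the interleukin 2 receptor, was at 150 CPM against 67.9 and at 143 against 71.4. Btg1, which restrains T cell proliferation, was at 412 CPM against 1656 and at 279 against 1219 (log2 -1.99 and -2.11). Icos, a costimulatory receptor of activated T cells, had UMIs in 8 of 16 and 10 of 19 members, against 11.8% and 19.7% of other T cell-like cells and 0.106% and 2.17% of B cell-like cells. Foxp3, the factor of regulatory T cells, had UMIs in 2 of 16 and 6 of 19 members, against 2.07% and 5.42% of other T cell-like cells and 0 and 0.964% of B cell-like cells. Members were deeper, at a median of 6835.5 and 7355 UMIs against 2689 and 2681, so no order is read from these shares of cells alone. On the CPM scale Foxp3 rested on 3 and 6 UMIs in members and its intervals included 0 (log2 1.37, -1.22 to 2.97, and 0.47, -1.14 to 1.59).

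The remaining lineages had few members. AT2 cell-like members had Sftpc at 81897 CPM against 189068 in the other AT2 cell-like cells of control and at 92710 against 165679 in fibrosis, log2 -1.21 and -0.84, beside the markers of a second family in 5 of 6 and 4 of 10. Cdkn1a was at 248 CPM against 50.8 and at 138 against 45.0 in the same cells. Of the AT2 cell-like members, 4 of 6 in control and 2 of 10 in fibrosis were doublet calls. Endothelial cell-like members of fibrosis held no UMI of Gpihbp1, the capillary lipase anchor, where other cells had 353 CPM, and Vwf had 73 UMIs of which 58 were in 1 cell. NK cell-like members had Gzmb at 913 CPM against 1012 in control and 832 against 790 in fibrosis, and both intervals of the ratio included 0.

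The fibrosis and control libraries were then compared within cycling alveolar macrophage-like cells. Of 5174 genes with at least 20 UMIs over both libraries, 183 were at least 2-fold higher in fibrosis (3.54%) and 206 at least 2-fold lower (3.98%). The median log2 ratio of all genes was -0.09. Of the 121 genes of the cycle lists with enough UMIs, 1 was higher, 7 were lower and 113 lay between (median -0.30). Of all 5174 genes, 92.5% lay within 2-fold, so nothing particular to cycle genes is read from that count. The 7 lower genes were Gins2, Prim1, Pola1, H2afx, Hist1h1b, Pbk and Spc24, and 3 of them act at the replication fork. The higher gene was Hist1h2ap, at 713 CPM in control and 2929 in fibrosis (log2 2.04), and it was also higher in the other alveolar macrophage-like cells (2.38). H2afx, a histone variant of DNA damage signalling, was lower at 319 and 111 CPM, and its ratio in other alveolar macrophage-like cells was 0.03.

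Among the genes that were most clearly higher in fibrosis, several encode secreted or metabolic products. Mmp12 was at 536 CPM in fibrosis members and at 0 UMIs in control members, at least 54.9-fold higher against the floor of 3 UMIs over the group. Its log2 ratio was 5.01 in the other alveolar macrophage-like cells. It was also far higher in lineages that do not make the gene (log2 4.90 in B cell-like cells, and 36 UMIs against 0 in the other T cell-like cells, at least 12.1-fold), taken as a level of free RNA. The part of free RNA in the ratio of members was not tested. Fbp1, an enzyme of glucose synthesis, had 61 UMIs in 15 fibrosis members and 0 in control (at least 12.6-fold). Retnla, a marker of interleukin 4 signalling, had 82 UMIs in 34 of 61 fibrosis members (55.7%) and 1 UMI in control (log2 5.09). It had a UMI in 38.8% of fibrosis B cell-like cells, against 1.17% in control, and its ratio was 5.12 in B cell-like, 5.36 in T cell-like and 6.56 in AT2 cell-like cells, and the part of free RNA in its ratio was not tested. Ccl17, a chemokine, had 58 UMIs in 17 cells against 1 UMI. For Fbp1 and Ccl17, 0.964% and 2.41% of fibrosis B cell-like cells had a UMI, against 24.6% and 27.9% of members. AA467197 had 83 UMIs in 20 cells against 0, and Rnase2a had 63 UMIs in 10 cells, 30 of them in 1. Gzma had 55 UMIs in 5 cells, 26 in 1 cell with NK markers, and in the other alveolar macrophage-like cells its ratio was -0.37. Without cells of a second family, too few of its UMIs were left for a ratio.

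Some differences recurred in every lineage examined. AY036118 was at 78.1 CPM in control and 582 in fibrosis members. Wdr89 was at 446 and 107 CPM (-2.05), Rps27rt at 342 and 101 (-1.76) and Rpl23a-ps3 at 251 and 92.7 (-1.43). Each of these 4 differed in the same direction and by over 2-fold in T cell-like, B cell-like, AT2 cell-like and type 1 dendritic cell-like cells. Gm26917 had 2 UMIs in control and 62 in fibrosis members. Genes with near-identical copies, as in ribosomal gene families, are uncertain since the counting could have split their reads.

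Genes lower in fibrosis members were partly set by single cells. Cxcl10 had 252 UMIs in control, all in 1 cell, and Ccl4 had 58, all in 1 cell, so neither describes the group. Plac8 was at 241 and 22.2 CPM, with 35 of its 74 control UMIs in 1 cell, and its log2 ratio of -3.39 was -1.62 with doublet calls removed and -2.09 with 3 genes in the rule. Apoe was at 176 and 42.3 CPM, with UMIs in 8 of 41 control and 20 of 61 fibrosis members and 22 of the control UMIs in 1 cell. Fabp1 was at 466 CPM in control, found in 34 of 41 members, and at 155 CPM in fibrosis, in 33 of 61 (log2 -1.58). Gps2, a subunit of a corepressor complex, was at 127 and 40.3 CPM.

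Outside all lists, the genes most specific to cycling alveolar macrophage-like cells in both libraries were again genes of division. The 15 with the highest lower ratio of the 2 libraries were led by Mxd3, a MAX-binding repressor, at 65.1 and 70.5 CPM in members and at 0 UMIs in the other cells, at least 73.4-fold and 122-fold higher. Melk, a mitotic kinase, had 20 and 29 UMIs in members against 0 and 2 in other cells, and Esco2, a cohesin acetyltransferase, 40 and 52 against 0 and 6. Others included Casc5 (a kinetochore scaffold), Shcbp1, Cdca3, Iqgap3, Cdca5 (a cohesin protector), Rad51ap1 (DNA repair), Cenph (a kinetochore protein) and Fbxo5 (an inhibitor of cyclin destruction). Among them were also the long noncoding RNA Lockd, 2810417H13Rik and C330027C09Rik, and the log2 ratios of these 3 lay between 4.12 and 6.83. 2810417H13Rik, which encodes a protein that binds Pcna, had the most UMIs of the 15, 222 in control and 310 in fibrosis members.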

How the data were processed

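The authors deposited raw UMI counts per gene and cell for 27998 genes, as whole numbers from 10x Genomics V2 libraries, without normalisation. The submitters' processing notes name Cell Ranger 1.3, bcl2fastq and the mm10 build. The totals were 36632591 UMIs over 8280 control cells and 38090308 UMIs over 7173 fibrosis cells, with lowest cell totals of 1460 and 1915. Cells over 10% mitochondrial UMIs were left out (254 and 228).

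The members, marker lists and gene lists were chosen with earlier results of these data known. Lineages came from 25 marker lists, scored as the gene-centred mean of log counts per 10000 UMIs. The best list needed at least 2 of its markers with a UMI and a score of at least 0.2. A second family needed a score of at least 0.5 and 3 markers. Doublets were kept. They were scored by the scrublet routine of scanpy 1.11.5, whose threshold marked 5 control cells (0.0623%), too few to have worked, so the alternative removed the top 515 by score, and 168 in fibrosis (2.42%).

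UMIs were summed per lineage and library. Ratios are log2 with 0.5 UMI added to each sum, for genes with at least 20 UMIs in all, with exact Poisson levels and conditional binomial intervals (scipy 1.17.1, numpy 2.4.6). With 1 library per group, no test was run. The ratio code was tested on drawn counts with known changes. Genes named are those of the lists, the 15 genes outside the lists with the highest lower ratio of cycling to other alveolar macrophage-like cells in the 2 libraries (at least 20 UMIs in members of each), and the 10 genes in each direction whose interval for fibrosis against control lay farthest from 0 (at least 50 UMIs). A few items are not reported here.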

Additional observations from a re-analysis of the deposited data

How the results depend on the processing

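No paired analysis was possible because each group holds 1 library. The rule was tried with 3 and 5 genes, mitochondrial limits of 5% and none, doublet calls removed, an equal UMI floor, shared barcodes left out, other lineage assignments and thinned counts. The cycling share over all kept cells does not use lineages, so other lineage assignments were not run for it. The difference in that share stayed positive under the other alternatives. Thinning made it smaller, at 0.246 points with 1000 UMIs per cell, 0.353 with 1460 and 0.531 with 3000. Thinning leaves fewer UMIs per cell to meet the rule, and the part of depth in the difference was not otherwise tested. With no minimum UMI sum, 1213 genes were at least 2-fold higher and 1766 lower in fibrosis against control in cycling alveolar macrophage-like cells, which counts genes with a few UMIs. The share difference of neutrophil-like cells reversed to -0.297 points without cells of a second family. Of 80 values of the main results under an alternative, 75 moved less than counting error or by less than 1.5 times. Thinning to 3000 UMIs and leaving out cells of 2 families were chosen after seeing the data. In a lineage with under 10 members, levels rest on the UMIs of those few cells.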

Other observations

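The rule asks for genes of late division, and other cells held many S phase genes. At least 8 of 30 S phase genes had a UMI in 61 of 7926 control and 122 of 6776 fibrosis cells outside the rule, beside 70 and 107 members. Alveolar macrophage-like cells were the largest group of them, with 19 of 670 cells outside the rule in control and 56 of 919 in fibrosis. Type 1 dendritic cell-like cells followed with 16 of 105 in control and 15 of 217 in fibrosis, a larger share in control. Members with as many S phase genes numbered 9 and 20. The cycling share of this lineage by the rule went the other way, at 7.89% in control and 13.2% in fibrosis. How far that difference depends on asking for late genes was not tested. Of the fibrosis cells, 11 were on the club list, whose cells were deep.

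Among cells over the mitochondrial limit, 0 of 254 in control met the gene rule, with an exact interval up to 1.44%. In fibrosis 2 of 228 did (0.877%), 1 on the club list and 1 endothelial cell-like.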
